A study of Mus musculus with 21 samples.

Results

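Resting mouse macrophages that had received dimethyl malonate (DMM) were compared with resting macrophages that had received succinate, neither of them stimulated with lipopolysaccharide (LPS). The comparison takes the 4 libraries of DMM alone and the 4 libraries of succinate alone, 8 of the 21 libraries of the series, chosen by their labels and not by any measured value. The 3 libraries of untreated cells, which received neither compound nor LPS, are given beside them. The cells were bone-marrow-derived macrophages (BMDMs), grown from the marrow of C57bl/6 mice aged 12 weeks over 6 days in medium from L929 cells, a fibroblast line that secretes the macrophage growth factor M-CSF. DMM or succinate was given for 3 h. The remaining libraries came from cells that received LPS for 4 or 48 h, with or without either compound beforehand. The unstimulated libraries were made in a 4 h and a 48 h set that accompany those times. DMM alone and succinate alone each have 2 libraries in each set. Untreated cells have 2 in the 4 h set and 1, untreated 4, in the 48 h set. Column names of the count table carry only a number, and numbers 1 and 3 were read as the 4 h set and 2 and 4 as the 48 h set, an inference from the labels. Doses, vehicle and the time between treatment and lysis in each set are not given in these sources, so it is not known whether the compounds were used at matched doses. Nothing says that the libraries came from separate mice or cultures. The p-values therefore speak of the spread among these libraries alone, which may be technical.

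Succinate is the tricarboxylic acid (TCA) cycle intermediate that succinate dehydrogenase, complex II of the respiratory chain, oxidises to fumarate. Malonate resembles succinate, occupies the same active site and inhibits the enzyme, and its dimethyl ester enters cells more readily than the charged acid. In macrophages, oxidation of succinate is known to feed electrons back through complex I and to raise mitochondrial reactive oxygen species after LPS. DMM and succinate are therefore a common pair of tools that act on opposite sides of the same enzyme, and the comparison asks how the transcriptomes of resting cells differ between them.

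Total counts were 662186 to 1032193 in the DMM libraries, 736078 to 1223856 in the succinate libraries and 832129 to 852811 in the untreated libraries, with 11799 to 12783 genes that had at least 1 read. At this depth 5803 genes had enough reads to be tested. Macrophage identity genes were expressed in every group: Csf1r, the M-CSF receptor, had 4570 to 6180 CPM (counts per 1e6 reads of the scaled library) in DMM, 3400 to 7450 CPM in succinate and 6210 to 6490 CPM in untreated libraries, and none of the 20 tested genes of that list differed between DMM and succinate at an adjusted p under 0.05. Markers of other cell types were partly absent. Of 16 neutrophil markers 6 had no reads in any of the 11 unstimulated libraries (S100a8 and Ly6g among them), and the list summed to 26.9 to 36.8 CPM in DMM, 14.6 to 29.2 CPM in succinate and 7.01 to 22.9 CPM in untreated libraries, with Csf3r and Mmp8 among the genes detected. Of 12 B cell markers 4 had no reads (Cd79a and Pax5 among them), and the sums of 134 to 189 CPM in DMM, 65.2 to 181 CPM in succinate and 80.9 to 139 CPM in untreated libraries came almost wholly from Ighm. Of 14 T and NK cell markers 7 had no reads (Cd3e and Trac among them), and the sums were 5.61 to 14.6 CPM in DMM, 8.5 to 30.6 CPM in succinate and 4.57 to 16.4 CPM in untreated libraries, with Il7r detected in each group. Their part in the results was not tested. One library of the series bears on the labels. The library labelled LPS 48 h 1 was closer to DMM 2 than to any other library, with a chi-square per degree of freedom of 1.19 over 7378 genes, against 2.77 for the next closest of all pairs, succinate 2 and 4. Replicates of DMM were less alike, at 11.8 for DMM 1 and 3 and 4.19 for DMM 2 and 4. DMM 3 was nearer to untreated 3 (4.49) and to succinate 2 (5.39) than to DMM 1, whose closest library was DMM 3. The library labelled LPS 48 h 1 had 4.25 against DMM 4, but 65.2 and 70.8 against the LPS 4 h libraries and 71.1 against the other LPS 48 h library. In 71 of the 77 genes called below it was nearer to DMM than to succinate of the 48 h set. Those genes were called with DMM 2 in the test, so this count adds nothing to the pairwise values.

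DMM and succinate libraries differed in 77 of 5803 genes, 1.33% of those tested, by edgeR's quasi-likelihood test with set as a covariate and a Benjamini-Hochberg adjusted p under 0.05. Of these, 38 were higher in DMM (0.655% of genes tested) and 39 lower (0.672%). The log2 fold changes had absolute sizes of 0.66 to 2.77, with a median of 1.04. All 77 had the same direction in both sets. In 76 of them the values of the DMM and succinate libraries did not overlap within either set, which held for 11% of all genes tested, and in 43 the 4 DMM and 4 succinate values did not overlap at all, which held for 5.36% (2.88% with DMM higher and 2.48% with DMM lower). The 77 genes were called on these same libraries, so their shared direction and lack of overlap follow largely from the call. They are no separate support. Without DMM 2 the test called 94 genes, of which 62 were among the 77. The named genes that lost the call without DMM 2 were H2-Aa, Slc6a12, Tfrc, Anxa1, Folr2, Pltp, Mcm5, Rrm1 and Spp1. The count moved by over 1.5 times without DMM 1 (47 genes), DMM 4 (41), succinate 1 (44), succinate 2 (49) or succinate 4 (37), and when the set was left out of the model (15).

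Among the genes higher in DMM were receptors and surface proteins of monocytes and macrophages, an oxysterol-producing enzyme and proteins of the actin cytoskeleton. Ch25h encodes cholesterol 25-hydroxylase, which makes 25-hydroxycholesterol, an oxysterol known to hold back the sterol-regulated transcription factor SREBP2. It had 18.3 and 13.5 CPM in the 4 h set and 47.1 and 54.4 CPM in the 48 h set of DMM, against 4.06 and 0.805 CPM and 13.4 and 6.2 CPM in the same sets of succinate. The lowest DMM library lay just above the highest succinate library, and within each set the groups were apart. The values of the 4 h set rest on few reads, 10 and 12 in DMM 1 and 3 against 3 and 1 in succinate 1 and 3. Its log2 fold change was 2.53 ± 0.38 (SE; adjusted p = 0.000128, edgeR). Parvg, the parvin of blood cells that links integrins to actin, had 12.8, 18, 36 and 29.7 CPM in DMM 1, 3, 2 and 4, against 1.35, 4.02, 6.07 and 8.85 CPM in succinate 1, 3, 2 and 4. The groups did not overlap, and the log2 fold change was 2.18 ± 0.37. Its reads were few in succinate 1, 3, 2 and 4, at 1, 5, 5 and 10. Lsp1, an actin-binding protein of leukocytes, had 353, 387, 528 and 577 CPM in DMM 1, 3, 2 and 4, against 101, 95, 228 and 235 CPM in succinate 1, 3, 2 and 4, a log2 fold change of 1.57 ± 0.18 (adjusted p = 2.92e-05, edgeR).

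Ccr2, the receptor by which monocytes follow the chemokine Ccl2, had 36.6, 35.9, 54 and 42.6 CPM in DMM 1, 3, 2 and 4. In succinate 1, 3, 2 and 4 it had 6.76, 11.3, 10.9 and 21.2 CPM, so that every DMM library was above every succinate library (log2 fold change 1.70 ± 0.27, adjusted p = 0.000602, edgeR). Clec4e, the C-type lectin Mincle that recognises mycobacterial and fungal glycolipids, had 47.6, 69.6, 84 and 89.1 CPM in DMM 1, 3, 2 and 4, against 24.3, 26.6, 25.5 and 36.3 CPM in succinate 1, 3, 2 and 4. Its log2 fold change was 1.35 ± 0.20, and that of Cd300ld, an activating receptor of the CD300 family, was 1.41 ± 0.19. Eng, the TGF-beta co-receptor endoglin, Atp2a3, a calcium pump of the endoplasmic reticulum, Aoah, which removes acyl chains from LPS, Hgsnat, a lysosomal acetyltransferase needed to degrade heparan sulfate, and Prune2 were higher by 1.02 to 1.34 on the log2 scale, with no overlap between the groups. Ch25h, Parvg, Lsp1, Ccr2, Clec4e, Cd300ld, Atp2a3 and Hgsnat were called in each of the 8 fits that left out 1 library. Eng, Aoah and Prune2 were called in 7 and were lost without DMM 4.

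**Figure D1:**
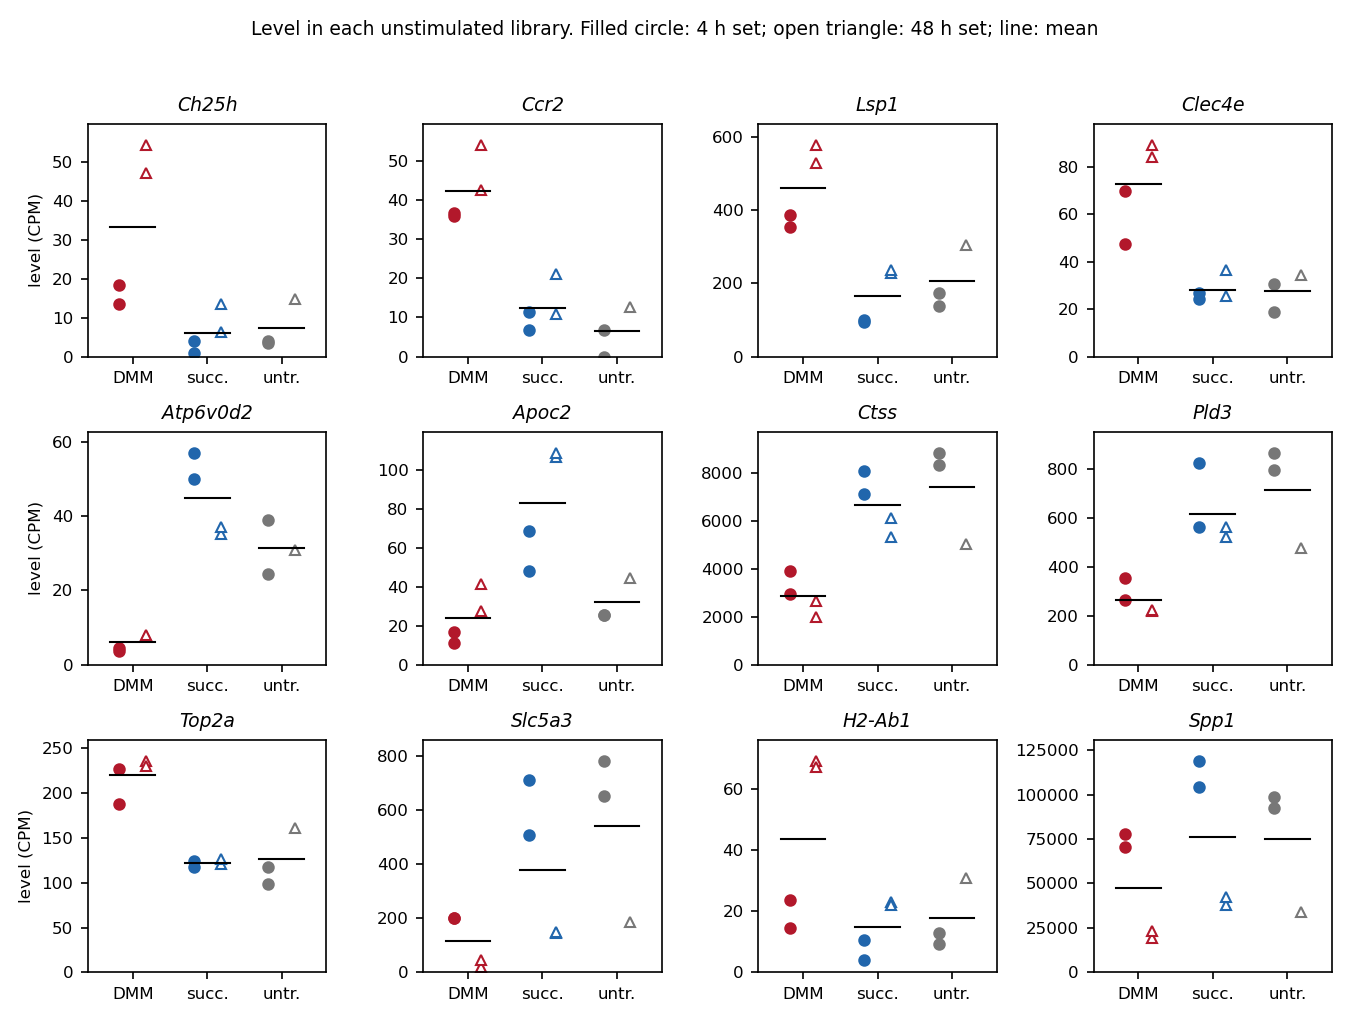
Level in CPM (vertical axis, linear from 0) of 12 genes in each of the 4 DMM, 4 succinate and 3 untreated libraries; filled circles are the 4 h set, open triangles the 48 h set and lines the group means. The DMM libraries stand apart from the succinate libraries in Lsp1 and Atp6v0d2 over both sets, whereas in Slc5a3, H2-Ab1 and Spp1 the sets differ as well and the groups separate within each set.

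The genes lower in DMM included several lysosomal proteins and secreted factors. Atp6v0d2, a subunit of the vacuolar proton pump that is abundant in macrophages and osteoclasts, had 3.66, 4.49, 7.71 and 7.92 CPM in DMM 1, 3, 2 and 4, against 50, 57.1, 35.2 and 37.2 CPM in succinate 1, 3, 2 and 4. Each DMM library was far below each succinate library, and the log2 fold change of -2.77 ± 0.34 was the lowest of the genes called (adjusted p = 2.49e-05, edgeR). The DMM values rest on few reads, at 2, 4, 9 and 8 in DMM 1, 3, 2 and 4. Ctss, the lysosomal protease cathepsin S that trims the invariant chain of MHC class II, had 2950, 3900, 1990 and 2670 CPM in DMM 1, 3, 2 and 4 and 7120, 8080, 5330 and 6130 CPM in succinate 1, 3, 2 and 4 (log2 fold change -1.22 ± 0.19). Pld3, an exonuclease of endolysosomes, had 264, 356, 220 and 225 CPM in DMM 1, 3, 2 and 4, against 824, 563, 563 and 520 CPM in succinate 1, 3, 2 and 4. The DMM libraries of Ctss and Pld3 lay below the succinate libraries in both sets.

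Apoc2, the apolipoprotein that activates lipoprotein lipase, had 11, 16.8, 27.4 and 41.6 CPM in DMM 1, 3, 2 and 4, against 69, 48.3, 107 and 109 CPM in succinate 1, 3, 2 and 4. Its log2 fold change was -1.77 ± 0.22 (adjusted p = 3.27e-05, edgeR). Tfrc, the transferrin receptor, had 9.15, 6.73, 6.86 and 3.96 CPM in DMM 1, 3, 2 and 4, against 21.6, 12.9, 13.4 and 26.6 CPM in succinate 1, 3, 2 and 4. At these low counts its log2 fold change of -1.52 ± 0.40 was close to the threshold (adjusted p = 0.0424, edgeR), and it was called in 3 of the 8 fits that left out 1 library. Fam20c, a kinase of secreted proteins, Npy, the neuropeptide Y, Mfge8, which bridges apoptotic cells to phagocytes, Psen2, a catalytic subunit of gamma-secretase, Rilpl2, the tetraspanin Cd37 and the sugar phosphate exchanger Slc37a2 were lower, with log2 fold changes between those of Slc37a2 (-0.94 ± 0.17) and Fam20c (-1.497 ± 0.29) and no overlap between the groups. Atp6v0d2, Ctss, Pld3, Apoc2, Fam20c, Npy, Rilpl2, Cd37 and Slc37a2 were called in each fit that left out 1 library, Mfge8 in 6 of 8 (not without DMM 4 or succinate 4) and Psen2 in 1 of 8.

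The most abundant transcript called was Spp1, which encodes the secreted phosphoprotein osteopontin. It had 78000 and 70300 CPM in the 4 h set and 19300 and 23200 CPM in the 48 h set of DMM, against 104000 and 119000 CPM and 38000 and 42600 CPM in the same sets of succinate. DMM was lower within each set, but DMM of the 4 h set was above succinate of the 48 h set, since the sets differed more than the treatments. Its log2 fold change was -0.75 ± 0.18 (adjusted p = 0.0424, edgeR), and it was called only without succinate 3 among the fits that left out 1 library. Fxyd2, a regulatory subunit of the sodium pump, also differed between sets, with 436, 497, 149 and 189 CPM in DMM 1, 3, 2 and 4, against 1260, 1350, 427 and 533 CPM in succinate 1, 3, 2 and 4. Within a set its DMM and succinate values were far apart, and its log2 fold change was -1.49 ± 0.17 (adjusted p = 2.92e-05, edgeR). The matrix metalloproteinase Mmp12 (-1.10 ± 0.18) and the ribonuclease inhibitor Rnh1 (-0.90 ± 0.17) were lower too, and both were called in each fit that left out 1 library. Anxa1, annexin A1, an anti-inflammatory phospholipid-binding protein, and Tnfrsf1b, the second TNF receptor, were lower by 0.79 and 0.78 and were called in 2 and 4 of these 8 fits.

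DMM was compared with succinate inside each set, in a model of the 8 libraries that gives each set its own difference. It called 82 genes in the 4 h set (1.41% of genes tested) and 48 in the 48 h set (0.827%). Fitted alone, the 4 h set gave 4 genes and the 48 h set 81. The order of the sets by count thus depends on the model. Atp6v0d2 had a log2 fold change of -3.65 ± 0.58 (SE) in the 4 h set and -2.20 ± 0.40 in the 48 h set. Ch25h had 2.85 ± 0.81 and 2.43 ± 0.43, and Lsp1 1.92 ± 0.23 and 1.25 ± 0.22. Slc6a12 differed by -1.60 in the 4 h set (adjusted p = 0.000833, edgeR) and by -0.35 in the 48 h set (adjusted p = 0.789, edgeR). The difference between these 2 values did not pass the threshold (1.25, adjusted p = 0.221, edgeR). None of the 77 genes had a difference between sets that passed it.

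**Figure D2:**
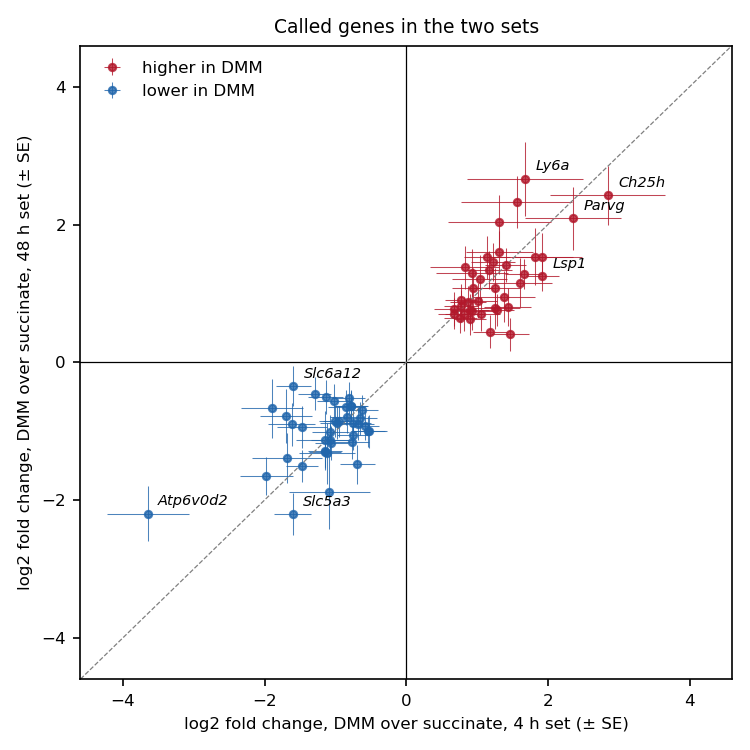
Log2 fold change of DMM over succinate with its standard error for the 77 genes called, in the 4 h set (horizontal axis) and the 48 h set (vertical axis); the dashed line marks equal values. All 38 genes higher in DMM lie in the upper right quadrant and all 39 lower ones in the lower left. The genes were called on these same libraries, so this position follows largely from the call.

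Genes of the cell cycle and DNA replication were among those higher in DMM. Of 43 tested, 9 passed the threshold, each higher in DMM (20.9%, against 1.33% of all genes tested), 42 had a positive log2 fold change, and the median was 0.62, against 0.004 over all genes tested. Top2a, the topoisomerase that untangles chromosomes, had 227, 188, 236 and 230 CPM in DMM 1, 3, 2 and 4, against 124, 117, 121 and 127 CPM in succinate 1, 3, 2 and 4. The 4 succinate libraries were close together and every DMM library lay above them (log2 fold change 0.84 ± 0.16, adjusted p = 0.00641, edgeR). Mki67, the proliferation marker Ki-67, had 117, 90.9, 110 and 88.1 CPM in DMM 1, 3, 2 and 4, against 50, 51.5, 41.3 and 63.7 CPM in succinate 1, 3, 2 and 4 (log2 fold change 0.96 ± 0.19). Both calls were lost without succinate 2, and that of Top2a also without succinate 4. Rrm2 and Rrm1, the subunits of the ribonucleotide reductase that makes deoxynucleotides, were higher by 0.87 and 0.69. The cyclins Ccna2 and Ccnb2 were higher by 0.86 and 0.76 and Mcm5 of the replicative helicase by 0.83. The chromatin protein Hmgb2 was higher by 1.13 and the microtubule regulator Stmn1 by 1.00. In the 8 fits that left out 1 library, Rrm2 was called in 6, Ccna2 in 5, and Ccnb2 and Hmgb2 in 3 each. Mcm5 was called in 2, Stmn1 in 1 and Rrm1 in 0. For Hmgb2 the groups overlapped, with 18.3 CPM in DMM 1 against 14.9 to 24.3 CPM in succinate libraries. Hjurp, which loads the centromeric histone CENP-A after mitosis and is not in the list, had 65.9, 49.4, 56.6 and 52.5 CPM in DMM 1, 3, 2 and 4, against 31.1, 28.2, 30.3 and 22.1 CPM in succinate 1, 3, 2 and 4. The summed level of the 48 listed genes was 2570 to 2930 CPM in DMM, 1610 to 1990 CPM in succinate and 1540 to 2140 CPM in untreated libraries, without overlap between DMM and the others. In bulk RNA, a larger share of cycling cells and more such RNA per cycling cell cannot be told apart. The number of these genes called was 9 without DMM 2, but 5 without DMM 1, 5 without DMM 3, 4 without DMM 4, 3 without succinate 1, 1 without succinate 2 and 2 without succinate 4, while 40 to 43 log2 fold changes stayed positive in each of the 8 fits.

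Promoters of cell cycle genes are known to carry the NF-Y box CCAAT and the cell cycle homology region TTTGAA, and were searched for both motifs on either strand in RefSeq windows of 250 bases before to 50 bases after the start site (build GRCm38.p6). The 4 windows printed here show where the motifs lie (Hjurp, as the cell cycle gene among those with the highest fold changes, and 3 called genes of the list that were picked after their values and motifs were seen). Capitals mark either motif or its reverse complement, and each window is on the minus strand, at chr1:88277530-88277829 for Hjurp, chr9:70421505-70421804 for Ccnb2, chr11:99024140-99024439 for Top2a and chr7:135716330-135716629 for Mki67.
Hjurp: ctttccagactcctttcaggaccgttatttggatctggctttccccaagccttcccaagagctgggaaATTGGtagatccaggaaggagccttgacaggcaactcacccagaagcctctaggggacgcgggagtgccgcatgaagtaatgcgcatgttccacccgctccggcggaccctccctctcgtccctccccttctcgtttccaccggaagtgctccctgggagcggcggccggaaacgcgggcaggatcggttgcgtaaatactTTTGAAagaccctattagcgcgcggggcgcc
Ccnb2: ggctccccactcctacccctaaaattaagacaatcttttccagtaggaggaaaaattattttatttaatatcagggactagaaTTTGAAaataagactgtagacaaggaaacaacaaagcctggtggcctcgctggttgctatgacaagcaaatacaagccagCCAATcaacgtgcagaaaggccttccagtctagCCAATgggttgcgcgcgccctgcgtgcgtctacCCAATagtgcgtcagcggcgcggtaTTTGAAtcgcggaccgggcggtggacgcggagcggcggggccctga
Top2a: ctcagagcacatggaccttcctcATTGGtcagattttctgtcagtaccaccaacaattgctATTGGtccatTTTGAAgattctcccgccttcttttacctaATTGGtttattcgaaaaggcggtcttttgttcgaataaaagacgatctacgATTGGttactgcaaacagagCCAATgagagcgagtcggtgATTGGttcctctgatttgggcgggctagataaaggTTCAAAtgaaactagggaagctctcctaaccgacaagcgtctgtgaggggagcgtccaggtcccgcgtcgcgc
Mki67: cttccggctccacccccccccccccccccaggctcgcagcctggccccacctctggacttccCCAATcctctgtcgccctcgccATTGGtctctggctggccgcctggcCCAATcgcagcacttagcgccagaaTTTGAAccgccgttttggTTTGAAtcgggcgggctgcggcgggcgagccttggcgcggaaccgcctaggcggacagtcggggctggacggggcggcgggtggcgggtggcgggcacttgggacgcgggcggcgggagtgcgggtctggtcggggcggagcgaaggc
Top2a had 6 CCAAT and 2 TTTGAA matches, Ccnb2 and Mki67 had 3 and 2 each, and Hjurp had 1 of each. Of the 9 called cell cycle genes, 7 had a window, and CCAAT stood in 7 of 7 and TTTGAA in 4 of 7 (57.1%), against 37.4% and 17.9% of all 32851 windows searched. Of 24 windows of 21 genes among the 24 with the highest and lowest fold changes, 8 held CCAAT (33.3%), 3 TTTGAA (12.5%) and 6 TGGAAA, the core of the tonicity element of Nfat5 (25.0%, against 21.4% of all windows). CCAAT and TTTGAA were chosen because cell cycle promoters are known to carry them. An excess over all windows was therefore likely for any list of such genes, and it does not bear on the treatments. Uncalled genes of the list were not compared. A match is a description of the sequence and shows no binding.

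Of 8 tested genes of MHC class II presentation and co-stimulation, 3 were higher in DMM and 1 lower, against 0.655% and 0.672% of all genes tested. The number higher was 1 without DMM 4, succinate 2 or succinate 4 and 2 without DMM 1, DMM 2, DMM 3 or succinate 1. H2-Ab1, the class II beta chain, had 14.6 and 23.6 CPM in the 4 h set and 69.4 and 67.3 CPM in the 48 h set of DMM, against 4.06 and 10.5 CPM and 23.1 and 22.1 CPM in the same sets of succinate. The 48 h libraries were the higher ones in both groups, and DMM was higher within each set (log2 fold change 1.51 ± 0.26, adjusted p = 0.00186, edgeR). H2-Aa, the alpha chain, was higher by 1.21 ± 0.27 and Cd74, the invariant chain, by 0.70 ± 0.17. The lower gene was Ctss, whose product degrades the invariant chain. H2-Ab1 was called in each fit that left out 1 library, H2-Aa in 4 of 8 and Cd74 in 2 of 8. Of 34 tested genes of the type I interferon response 0 were called by edgeR, against 1.33% of all genes tested. Of the 34, 29 had negative log2 fold changes (median -0.15). Ifi27l2a, an interferon-inducible gene that is not in the list, was called higher in DMM (0.81, adjusted p = 0.0424, edgeR).

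Other genes of monocytes, chemokine signalling and the macrophage surface were higher in DMM beside Ccr2. Pf4, a CXC chemokine best known from platelets and also made by macrophages, had 9.15, 6.73, 47.1 and 77.2 CPM in DMM 1, 3, 2 and 4, against 2.7, 2.41, 10.9 and 13.3 CPM in succinate 1, 3, 2 and 4 (log2 fold change 2.18 ± 0.34). The other platelet markers Ppbp, Gp1bb, Gp9 and Gp6 had no reads in these libraries. F13a1, the coagulation factor XIII subunit of monocytes and macrophages, had 16.5, 13.5, 30 and 52.5 CPM in DMM 1, 3, 2 and 4, against 6.76, 2.41, 19.4 and 9.74 CPM in succinate 1, 3, 2 and 4, a difference of 1.615 ± 0.35 on the log2 scale that was lost without DMM 4 or succinate 4. Of 16 tested genes of monocytes and recent monocyte-derived macrophages, Ccr2 and F13a1 were the 2 called (12.5%, against 1.33% of all genes tested). Of the 16 log2 fold changes 9 were negative. The surface antigen Ly6a was higher by 2.39 ± 0.46, with 8.98 to 46.5 CPM in DMM and 0 to 9.74 CPM in succinate libraries. It was called in 6 of the 8 fits that left out 1 library. Without DMM 2 or DMM 4 it had too few reads to be tested, so its call rests on those libraries of the 48 h set. The inhibitory Fc receptor Fcgr2b (0.88 ± 0.21) and the tetraspanin Cd81 (0.76 ± 0.17) were higher as well, called in 1 and 3 of the 8 fits that left out 1 library.

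Genes of osmolyte carriers, which Nfat5 induces under hypertonic stress, included 2 that were lower in DMM. They were the 2 called of 9 tested genes of this list, where 1.33% of all genes tested were called. All 9 had negative log2 fold changes with a median of -0.28, against 2878 of 5803 genes and a median of 0.004 over all. Slc5a3 alone was called without DMM 1, DMM 2, DMM 3, succinate 1, succinate 3 or succinate 4. Slc5a3, the myo-inositol carrier, had 200 and 201 CPM in the 4 h set and 19.7 and 44.5 CPM in the 48 h set of DMM, against 713 and 509 CPM and 146 and 148 CPM in the same sets of succinate. Within each set the DMM libraries were well below the succinate libraries, and the log2 fold change was -1.87 ± 0.22 (adjusted p = 2.92e-05, edgeR). Its exons overlap those of Mrps6, a mitochondrial ribosomal protein, on the same strand. Reads of the pair cannot be told apart with certainty, and Mrps6 was lower by 1.04 ± 0.20. Slc6a12, the betaine carrier, had 93.4 and 86.4 CPM in the 4 h set and 32.6 and 41.6 CPM in the 48 h set of DMM, against 208 and 332 CPM and 46.1 and 47.8 CPM in the same sets of succinate. It was called in 2 of the 8 fits that left out 1 library. Slc6a6, the taurine carrier, had 2510, 2460, 1850 and 1850 CPM in DMM 1, 3, 2 and 4, against 2820, 1910, 2670 and 2700 CPM in succinate 1, 3, 2 and 4, and was not called (-0.23 ± 0.19, adjusted p = 0.761, edgeR). The kinase gene Sgk1, also induced by hypertonic stress, did not overlap between the groups (14.6 to 35.1 CPM in DMM, 38.8 to 62.8 CPM in succinate) but missed the threshold (-0.86 ± 0.26, adjusted p = 0.128, edgeR).

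**Figure D3:**
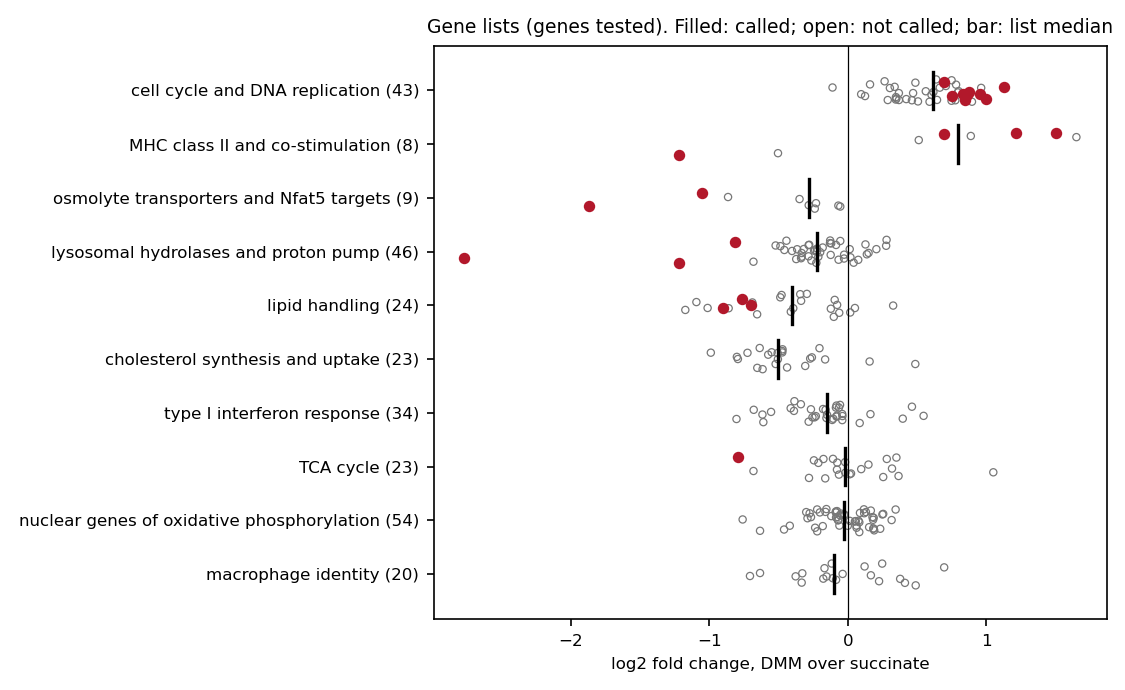
Log2 fold change of DMM over succinate (horizontal axis) for every tested gene of 10 lists (rows, with the number tested); filled points passed the threshold, open points did not, and bars mark list medians. Cell cycle genes lie almost wholly to the right of 0 with a median of 0.62, and cholesterol genes mostly to the left with a median of -0.50 and none called.

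Lysosomal hydrolases and proton pump subunits had 3 of 46 genes called, all lower in DMM (6.52%, against 0.672% of all genes tested), and 36 negative log2 fold changes with a median of -0.22. The 3 were Atp6v0d2, Ctss and the protease cathepsin L, Ctsl, which had 436, 691, 610 and 725 CPM in DMM 1, 3, 2 and 4, against 980, 1050, 1170 and 1150 CPM in succinate 1, 3, 2 and 4 (log2 fold change -0.82 ± 0.18). Of 24 tested lipid handling genes 3 were called, all lower (12.5%, against 0.672% of all genes tested), and 21 were negative with a median of -0.40. Plin2, the coat protein of lipid droplets, had 445, 481, 326 and 300 CPM in DMM 1, 3, 2 and 4, against 842, 722, 641 and 655 CPM in succinate 1, 3, 2 and 4. Every DMM library was below every succinate library (log2 fold change -0.90 ± 0.17, adjusted p = 0.00479, edgeR), and the call was lost without DMM 4. Pla2g7, the lipoprotein-associated phospholipase, and Pltp, the phospholipid transfer protein, were lower by 0.70 and 0.77, and each was called in 2 of the 8 fits that left out 1 library. Without DMM 4 none of the lipid handling genes was called, and without DMM 1, succinate 1, succinate 2 or succinate 4 there was 1. The fatty acid transporter Slc27a1, lower by 0.82, was called in 2 of these fits.

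Of the iron transport genes, an exporter was higher in DMM and an importer lower. Slc40a1, the iron exporter ferroportin, had 7.32 and 7.85 CPM in the 4 h set and 43.7 and 50.5 CPM in the 48 h set of DMM, against 1.35 and 4.02 CPM and 13.4 and 9.74 CPM in the same sets of succinate, and was higher by 1.88 ± 0.34 (adjusted p = 0.00195, edgeR; lost without succinate 4). Tfrc, which imports iron, was lower as given above. These were the 2 called of 11 tested genes (18.2%, against 1.33% of all genes tested), and the other 9 included Fth1, the heavy chain of the iron store ferritin, whose share of all counts was 1.88% to 2.54% in DMM and 2.54% to 3.37% in succinate libraries. The means of 2.33% ± 0.31 and 2.84% ± 0.36 (SD, n = 4 each) had a two-sided exact permutation p of 0.0571, where 0.0286 is the smallest this design allows.

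Genes of the enzyme on which the compounds act did not pass the threshold. Sdha, the succinate-oxidising subunit of succinate dehydrogenase, had 189, 204, 187 and 182 CPM in DMM 1, 3, 2 and 4, against 206, 172, 215 and 206 CPM in succinate 1, 3, 2 and 4. Its log2 fold change was -0.06 with a 95% interval of -0.41 to 0.28, and that of the iron-sulfur subunit Sdhb was -0.08 (-0.43 to 0.27). The membrane anchor Sdhd had -0.02 (-0.40 to 0.37), and Sdhc, with 16.3 CPM in DMM and 24.5 CPM in succinate on average, had -0.68 (-1.30 to -0.06, adjusted p = 0.392, edgeR). Of 23 tested TCA cycle genes 1 was called (4.35%, against 1.33% of all genes tested), Idh1, the cytosolic isocitrate dehydrogenase that makes NADPH. It had 538, 712, 434 and 475 CPM in DMM 1, 3, 2 and 4, against 1130, 895, 772 and 923 CPM in succinate 1, 3, 2 and 4, and each DMM library was below each succinate library (log2 fold change -0.79 ± 0.18, adjusted p = 0.0233, edgeR). Its call was lost without DMM 1, DMM 4, succinate 1, succinate 2 or succinate 4. Irg1, which makes itaconate, an inhibitor of the same dehydrogenase, had 13.5 to 38.4 CPM in DMM and 13.3 to 28.4 CPM in succinate libraries. Hif1a, whose protein succinate can stabilise, had a log2 fold change of -0.07 (-0.48 to 0.34). Among 18 glycolysis genes Hk3, a hexokinase of myeloid cells, was the 1 called, and was lower (-0.75 ± 0.19). Among 16 genes of the amino acid response it was Slc3a2, the heavy chain of amino acid exchangers, also lower (-0.67 ± 0.17). These are 5.56% and 6.25% of the lists, against 1.33% of all genes tested. Hk3 and Slc3a2 were called in 2 and 1 of the 8 fits that left out 1 library. The folate receptor Folr2, from the list of alternative activation, was lower by 0.73 ± 0.18 and was called in 2 of these fits. None of the 24 NRF2 antioxidant, 54 oxidative phosphorylation, 20 unfolded protein response, 14 heat shock or 13 p53 target genes tested was called. The cytokine genes Il1b, Tnf and Il1a had too few reads in these unstimulated cells to be tested.

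For 2 cholesterol genes, Fdps and Insig1, the difference between DMM and succinate was itself different in the 48 h and the 4 h set. Over both sets none of the 23 tested genes of cholesterol synthesis and uptake was called, although 21 log2 fold changes were negative with a median of -0.50. In the 4 h set 15 of 23 were positive (median 0.20), whereas in the 48 h set 22 of 23 were negative (median -1.18). In the 48 h set 11 of the 23 passed the threshold, as did 0.827% of all genes tested. The medians over all genes tested were 0.003 in the 4 h set and 0.01 in the 48 h set. The test of the difference between sets called 4 of 5803 genes (0.0689%), all with a lower DMM-over-succinate ratio in the 48 h set. Fdps, the farnesyl diphosphate synthase, had 86 and 97.6 CPM in the 4 h set and 26.6 and 38.6 CPM in the 48 h set of DMM, against 70.3 and 59.6 CPM and 87.4 and 98.2 CPM in the same sets of succinate. DMM was thus above succinate in the 4 h set and below it in the 48 h set, and the log2 fold change was 2.04 ± 0.37 lower in the 48 h set (48 h minus 4 h -2.04, adjusted p = 0.0272, edgeR). Insig1, which retains the SREBP complex in the endoplasmic reticulum when sterols are plentiful, had 278 and 306 CPM in the 4 h set and 96 and 80.2 CPM in the 48 h set of DMM, against 272 and 175 CPM and 217 and 266 CPM in the same sets of succinate (-1.86 ± 0.35 between sets). The scavenger receptor Stab1 and the predicted gene Gm15564 were the other 2 called, at -1.82 and -1.94. The isomerase Idi1 came close to the threshold (-1.88, adjusted p = 0.0512, edgeR), and so did Hmgcs1, the HMG-CoA synthase (-1.93, adjusted p = 0.0873, edgeR). Without DMM 2, succinate 2, succinate 3 or succinate 4 no gene passed the test of the difference between sets, with 303, 394, 367 and 403 genes at an unadjusted p under 0.05 by edgeR. It called 11 genes without DMM 1, 21 without DMM 3, 18 without DMM 4 and 21 without succinate 1, and 14 with DESeq2.

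**Figure D4:**
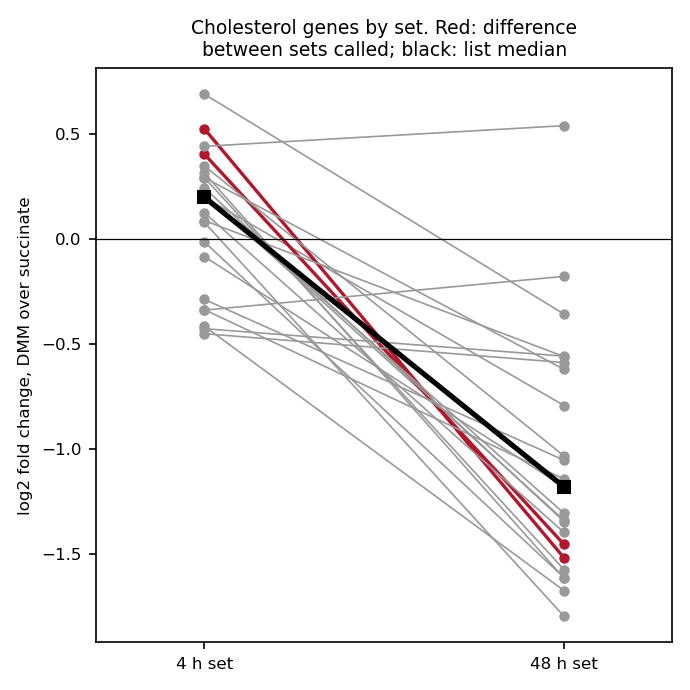
Log2 fold change of DMM over succinate (vertical axis) in the 4 h and 48 h sets for each of 23 tested genes of cholesterol synthesis and uptake; red lines are Fdps and Insig1, whose difference between sets was called, and black squares the list medians of 0.20 and -1.18. Lines run downward for 21 of 23 genes.

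DMM cells were also compared with untreated cells, and succinate cells with the same untreated cells. DMM and untreated libraries differed in 144 of 5635 genes (2.56%) by edgeR, of which 71 were higher in DMM (1.26%) and 73 lower (1.3%). Succinate and untreated libraries differed in 3 genes (0.0532%), with 429 at an unadjusted p under 0.05. With DESeq2 the succinate count was 7. The comparisons share the 3 untreated libraries, and the DMM count was 91 without DMM 1, 145 without DMM 2, 44 without untreated 1, 84 without untreated 3 and 93 without untreated 4. Only untreated 4 stands in the 48 h set, so the untreated level of that set rests on 1 library. Because the libraries are shared, the values of each comparison are given side by side. Lsp1 had a log2 fold change of 1.07 for DMM over untreated (adjusted p = 0.000602, edgeR) and of -0.50 for succinate over untreated (adjusted p = 0.431, edgeR). For Ctss these values were -1.26 (adjusted p = 2.89e-05, edgeR) and -0.04 (adjusted p = 0.974, edgeR), and for Pld3 -1.31 and -0.09. Slc5a3 had -2.10 and -0.24, Top2a 0.77 and -0.07, Ch25h 1.84 and -0.69, and Atp6v0d2 -2.23 and 0.55, with DMM over untreated given before succinate over untreated.

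The genes called between succinate and untreated cells were Pla2g7, Apoc2 and Tmem176b, all higher in succinate. Pla2g7 had 93.4, 103, 195 and 190 CPM in DMM 1, 3, 2 and 4 and 188, 152, 278 and 321 CPM in succinate 1, 3, 2 and 4, against 43.3, 55.3 and 112 CPM in untreated 1, 3 and 4. It was above untreated cells with either compound, by 0.92 (adjusted p = 0.0042, edgeR) in DMM and by 1.62 (adjusted p = 5.81e-06, edgeR) in succinate. Apoc2 had a log2 fold change of -0.56 for DMM over untreated (adjusted p = 0.3, edgeR) and of 1.20 for succinate over untreated (adjusted p = 0.0163, edgeR). Tmem176b was higher in succinate than in untreated cells by 1.36 ± 0.24. Fam20c, Mfge8 and Tfrc had succinate values above untreated by 0.93, 0.74 and 0.98 and DMM values below by 0.56, 0.43 and 0.55, none of them past the threshold. The succinate comparison called 1 gene without untreated 1 or without untreated 4, and 6 without succinate 3.

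**Figure D5:**
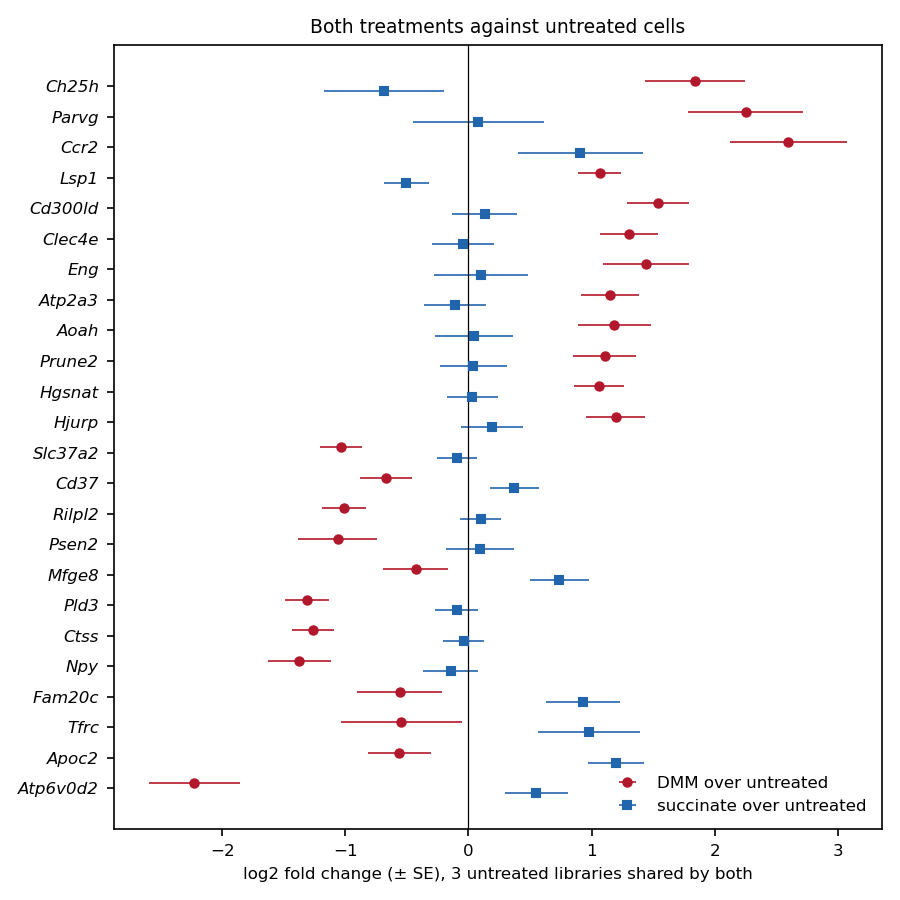
Log2 fold change with its standard error of DMM over untreated (red circles) and of succinate over untreated (blue squares) for the 12 genes with the highest and the 12 with the lowest DMM-over-succinate ratio among those without overlap; both use the same 3 untreated libraries. Succinate values lie to the right of 0 for Apoc2 (1.20), Tfrc (0.98), Fam20c (0.93), Ccr2 (0.91), Mfge8 (0.74) and Atp6v0d2 (0.55), and to the left for Ch25h (-0.69) and Lsp1 (-0.50).

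The same pair of compounds was also given before LPS, with 4 DMM libraries and 2 succinate libraries, 1 in each set. There 1135 of 5661 genes differed between DMM and succinate (20%), 432 higher with DMM (7.63%) and 703 lower (12.4%), and the count rested on the lone succinate libraries, at 325 without the one of the 4 h set and 492 without the one of the 48 h set, and at 1714 without DMM then LPS 48 h 2. DESeq2 called 604 genes. Of the 77 genes called in resting cells, 60 could be tested under LPS and 34 had the same direction (56.7%), as did 50% of all 4879 genes tested in both. Among them 10 were called in the same direction and 11 in the opposite one. Fxyd2 kept its direction, at -2.90 on the log2 scale, as did Idh1 (-3.00) and Mmp12 (-2.34). Pf4 was lower with DMM than with succinate under LPS (-6.01), as were Ch25h (-1.61) and Clec4e (-1.92), while Folr2 was higher (1.86).

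Shares of counts in broad classes were compared last. Ribosomal protein genes took 1.93% to 3.3% of counts in DMM and 2.25% to 3.46% in succinate libraries (means 2.72% ± 0.59 and 2.92% ± 0.52, SD, n = 4 each, two-sided exact permutation p = 0.6). Mitochondrially encoded transcripts took 2.84% to 4.04% in DMM and 3.16% to 4.1% in succinate libraries (means 3.45% ± 0.51 and 3.62% ± 0.41, SD, n = 4 each, two-sided exact permutation p = 0.6). Both differences between means were smaller than the SD of either group.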

How the data were processed

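Bulk RNA-seq libraries of full-length cDNA were made from directly lysed BMDMs by a variant of SmartSeq2, per the labels' protocols. No molecular identifiers are named, so reads may be copies of 1 molecule. The values are whole-number read counts per gene symbol for 34573 genes, as deposited by the authors. The submitters' processing notes name TopHat2, Bowtie, HTSeq and edgeR. Their versions and settings, the genome build and the strandedness of counting were not given in the sources used here. Of 78 genes named in the tables behind the text, 13 share exon sequence with another protein-coding gene in GENCODE vM21 (Eng, Cd37, Apoc2, Ccna2, Hk3, Pltp, Mmp12, Stab1, Fdps, Slc5a3 and Mrps6 among those called or named), so their counts may mix.

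A gene was tested where at least 2 libraries reached a CPM equal to 10 reads at median depth and its reads summed to 15 or more. Libraries were scaled by TMM. The main test was edgeR 4.0.16 (R 4.3.3), robust quasi-likelihood, on the 8 libraries with treatment and set as terms, 5 residual degrees of freedom, and Benjamini-Hochberg adjustment over all genes tested. A gene is called higher or lower at an adjusted p under 0.05. The difference between sets came from the same 8 libraries with 4 groups, and the untreated comparisons from 1 model of the 11 unstimulated libraries. CPM values use the 11 libraries on 1 scale. SE values come from the fitted weights and moderated dispersion. Alternatives were DESeq2 1.42.0, median-of-ratios scaling, no filter, other libraries in the fit, each set alone, no set term, a block by number, and leaving out each library.

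The members, lists and rules were chosen with earlier results of these data known. Named genes were the 12 highest and 12 lowest fold changes among called genes without overlap and with a mean of at least 10 CPM in the higher group, at most 3 genes of lowest p in each list with 5 or more tested (leaving predicted genes out of the first rule), a panel of target genes, and called genes of the test between sets. The further members of called lists, Spp1, Fxyd2, Mmp12, Rnh1, Anxa1, Tnfrsf1b, Ly6a, Fcgr2b, Cd81, Slc27a1, Mrps6, Idi1 and Tmem176b were added after their values were seen. So was Ifi27l2a. Promoter sequences are RefSeq's. Some results are not reported here.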

Additional observations from a re-analysis of the deposited data

Results flagged for a closer look

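The difference between DMM and succinate was itself different in the 48 h and the 4 h set, by the test of that difference, for 4 genes: Fdps (48 h minus 4 h -2.04 on the log2 scale), Insig1 (-1.86), Gm15564 (-1.94) and Stab1 (-1.82). In Stab1, 923 and 795 CPM in DMM stood against 471 and 276 CPM in succinate in the 4 h set, and 662 and 859 CPM in DMM against 1220 and 1090 CPM in succinate in the 48 h set.

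In 7 of 160 groups of 4 libraries examined, 1 library lay far from the other 3, where chance gives about 1 in 20. DMM 1 was lowest in Hmgb2 (18.3 CPM) and highest in Tnfrsf1b (104 CPM) and Irg1 (38.4 CPM). Succinate 1 was highest in Pld3 (824 CPM) and Fasn (310 CPM), succinate 4 highest in Hgsnat (335 CPM) and succinate 3 lowest in Slc6a6 (1910 CPM). DMM 1 was also the shallowest of the 8 libraries, with 662186 counts. The part of single libraries in these values was not tested.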

How the results depend on the processing

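The 77 genes called between DMM and succinate kept their direction under every alternative in which they were tested. Their number was 59 with DESeq2 (57 shared), 79 with median-of-ratios size factors, 104 without a filter (66 shared), 95 with the 11 unstimulated libraries in the fit, 81 in the 48 h set alone and 69 with 20 libraries, an alternative added after seeing the data that omits the library labelled LPS 48 h 1. It was 15 with no set term, 4 in the 4 h set alone and 3 with all 21 libraries. Leaving out 1 library gave 37 to 94. Of the 60 called genes named in the text other than Ifi27l2a, 23 were called in all 8 such fits. Between 9 (without DMM 2 or succinate 3) and 30 (without succinate 4) of them lost the call, and 27 did so without DMM 4. The samples carry replicate marks shared across treatments, A and B in the 4 h set and 1 and 2 in the 48 h set. What the marks stand for is not given, and the column names do not show which sample of a group they are. Same-numbered DMM and succinate libraries share only a number in the column names. Their deviations from the mean of group and set correlated at r = 0.146 (4 h) and 0.0602 (48 h) across genes, and those from the group mean alone at 0.275, -0.0262, 0.035 and 0.314 for numbers 1 to 4, so that not every pair was over 0.1 and no pairing was assumed. A replicate block by number in place of set gave 68 genes (60 shared) for DMM against succinate, 131 for DMM against untreated and 6 for succinate against untreated. The difference between sets called 4 genes, 14 with DESeq2, 8 with median-of-ratios size factors, 45 without a filter and 0 to 21 without 1 library. DMM against untreated called 144, 192 without a filter, 24 with no set term and 44 to 174 without 1 library. Succinate against untreated called 3, 7 with DESeq2, 13 without a filter, 0 with no set term (294 genes at an unadjusted p under 0.05 by edgeR) and 1 to 6 without 1 library. Under LPS the count was 1135, 604 with DESeq2 (21.5% of them higher with DMM, against 38.1%) and 325 to 1714 without 1 library. Against 9 cell cycle genes called, the count was 3 with DESeq2, 6 without a filter, 1 with no set term, 4 in the 48 h set alone and 0 in the 4 h set alone or with all 21 libraries. Against 3 lipid handling genes, it was 1 with the replicate block, 7 in the 48 h set alone, 6 with the 11 libraries and 0 with no set term, in the 4 h set alone or with all 21 libraries. Against 3 class II genes higher in DMM, it was 2 with DESeq2, without a filter or with the replicate block, 1 with 20 libraries and 0 with no set term, in the 4 h set alone or with all 21 libraries. Against 2 osmolyte genes, it was 3 without a filter or with 20 libraries, 1 in the 48 h set alone or with the 11 libraries and 0 with no set term, in the 4 h set alone or with all 21 libraries. Against 3 lysosomal genes, it was 1 in the 4 h set alone or with all 21 libraries. Sign changes arose in uncalled genes: in the 4 h set alone Fdps 0.50, Insig1 0.39, Hmgcs1 0.29, Idi1 0.061, Sdha 0.049, Sdhb 0.0059 and Slc6a6 0.065; in the 48 h set alone Hif1a 0.024 and Stab1 -0.60; and Irg1 at -0.031 without a filter, -0.021 with no set term and -0.025 with the replicate block. Without 1 library Irg1 ranged from -0.32 to 0.31, Hif1a from -0.27 to 0.054 and Stab1 from -0.072 to 0.58. The cause of these changes was not tested. At 662186 to 1223856 counts per library, genes with few reads, such as Il1b and Tnf, could not be tested.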
